A study of Mus musculus with 4 samples.

Results

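The spliceosome removes introns from pre-mRNA. It is built from small nuclear RNAs, each wrapped with proteins into a small nuclear ribonucleoprotein (snRNP). Sm proteins form a ring around the U1, U2, U4 and U5 RNAs. U1 marks the 5′ splice site, U2 pairs with the branch point, and the U4/U6.U5 tri-snRNP then brings in the RNAs that form the catalytic centre, which the Prp19 complex helps to keep active. Tut1 encodes the enzyme that extends the 3′ end of U6 snRNA with uridines, so the mRNAs of the proteins that assemble with U6 and its partners were read out in tissue in which Tut1 was targeted.

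The core snRNP and spliceosome proteins examined here were 55 genes taken from a list of symbols: the Sm ring, the U1, U2 and U4/U6.U5 proteins, the Prp19 complex with its partners, the release helicase Dhx15, and 3 proteins of the U11/U12 snRNP, which serves the rare minor introns. Of the 55 genes, 54 had a row among the 16449 genes of the count table, and Sf3b5 was not analysed here. Counts were high enough to test 46 of them, among 5878 genes tested in all.

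Poly(A)-enriched RNA was read on the Nanopore platform and counted per gene in dorsal and medial palliums, the forebrain wall that gives rise to neocortex and hippocampus, from mouse embryos at E11.5. The 2 WT libraries came from Tut1 f/f embryos without Cre. The 2 libraries labelled Tut1 knockout came from Tut1 f/f;Emx1-Cre embryos, in which Cre is made in dorsal forebrain progenitors and their progeny, so that blood, vessel, meningeal and microglial cells in the dissected tissue keep the gene. How many embryos went into a library is not stated, and the p-values below measure the spread between these libraries, which may be technical.

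The libraries held between 305642 and 397150 counts. The paper lists many times more sequenced reads for each library, so these counts are not the sequencing depth. How the reads became this number of counts is not stated. The tissue carried the pallial progenitor genes Pax6, with 93 to 137 counts per library, and Emx2, with 23 to 62. Tut1 itself had 6 and 11 counts in WT against 29 and 25 in knockout-labelled libraries, a called rise (log2 fold change 1.71 ± 0.40, SE; adjusted p = 0.0113, edgeR) where the label names a deletion. A count over the whole gene does not show whether the floxed exon was present, and directions below follow the labels. WT replicate 1 was the single library with Xist, at 64 counts.

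No core snRNP or spliceosome gene was called different between the groups. In the edgeR quasi-likelihood test, 0 of 46 members passed an adjusted p of 0.05 (Benjamini-Hochberg, adjusted over every gene tested), beside 2.06% of all genes tested. At an unadjusted p below 0.05 there were 4 members, or 8.70% of those tested, beside 14.2% of all genes. DESeq2 called 0 of the 27 members to which it gave an adjusted p (0.412% of the 2915 genes that had one), and limma-voom called 1 of 46, Prpf3 (2.09% of all genes). The median log2 fold change of the members was -0.07, and that of all genes tested was -0.01. A negative fold change was found for 27 of the 46 members (58.7%) and for 51.6% of all genes. The 95% interval of the fold change lay within 2-fold in either direction for 29 of the 46 members (63.0%), beside 49.5% of all genes. For the other members the interval reached beyond 2-fold.

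**Figure D1:**
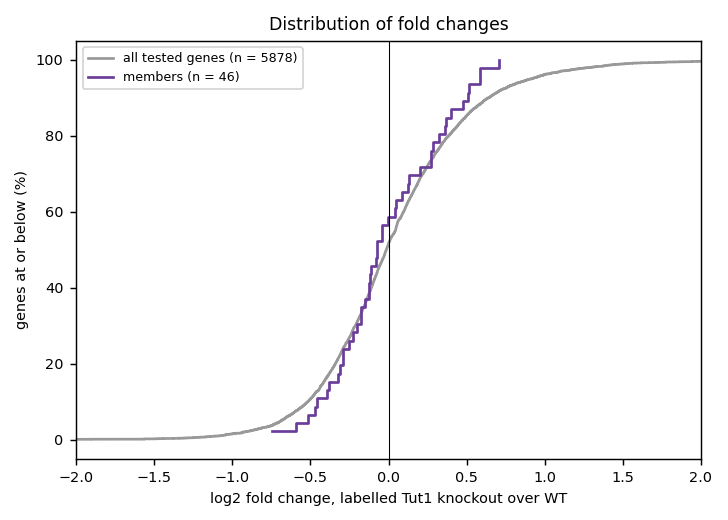
Cumulative percentage of genes (y axis) at or below each log2 fold change, libraries labelled Tut1 knockout over WT (x axis, drawn from -2 to 2), for the 46 tested members and all 5878 tested genes. The curves have their midpoints near 0, with medians of -0.07 and -0.01.

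The groups did not overlap for 17 of the 46 members (37.0%), beside 42.9% of all genes. Of these, 8 had both libraries labelled knockout above both WT libraries, beside 22.1% of all genes, and 9 had both below, beside 20.8%. These comparisons use CPM, counts scaled to library size after TMM correction (trimmed mean of M-values), the scale of all CPM values given here.

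The Sm ring held the most abundant and some of the least abundant members. Snrpd2, one of the Sm proteins, had 1422 and 1385 counts in WT against 1435 and 1187 in knockout-labelled libraries. Snrpg, another ring subunit singled out after its values were seen, had 1416 and 1392 counts in WT against 1299 and 1094 in knockout-labelled libraries. These genes ranked 23 and 26 by mean count among all 16449 genes. The other Sm genes that were tested, Snrpb, Snrpd1, Snrpd3, Snrpe and Snrpf, had 9 to 41 counts in any library, although their proteins sit in the same ring as those of Snrpd2 and Snrpg. The mean level in WT was 4088 CPM for Snrpd2 and 4089 CPM for Snrpg, against 34.8 to 93.2 CPM for the other 5 genes. Snrpd2 and Snrpg together made up 58.5 to 62.0% of all counts on members in a library.

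**Figure D2:**
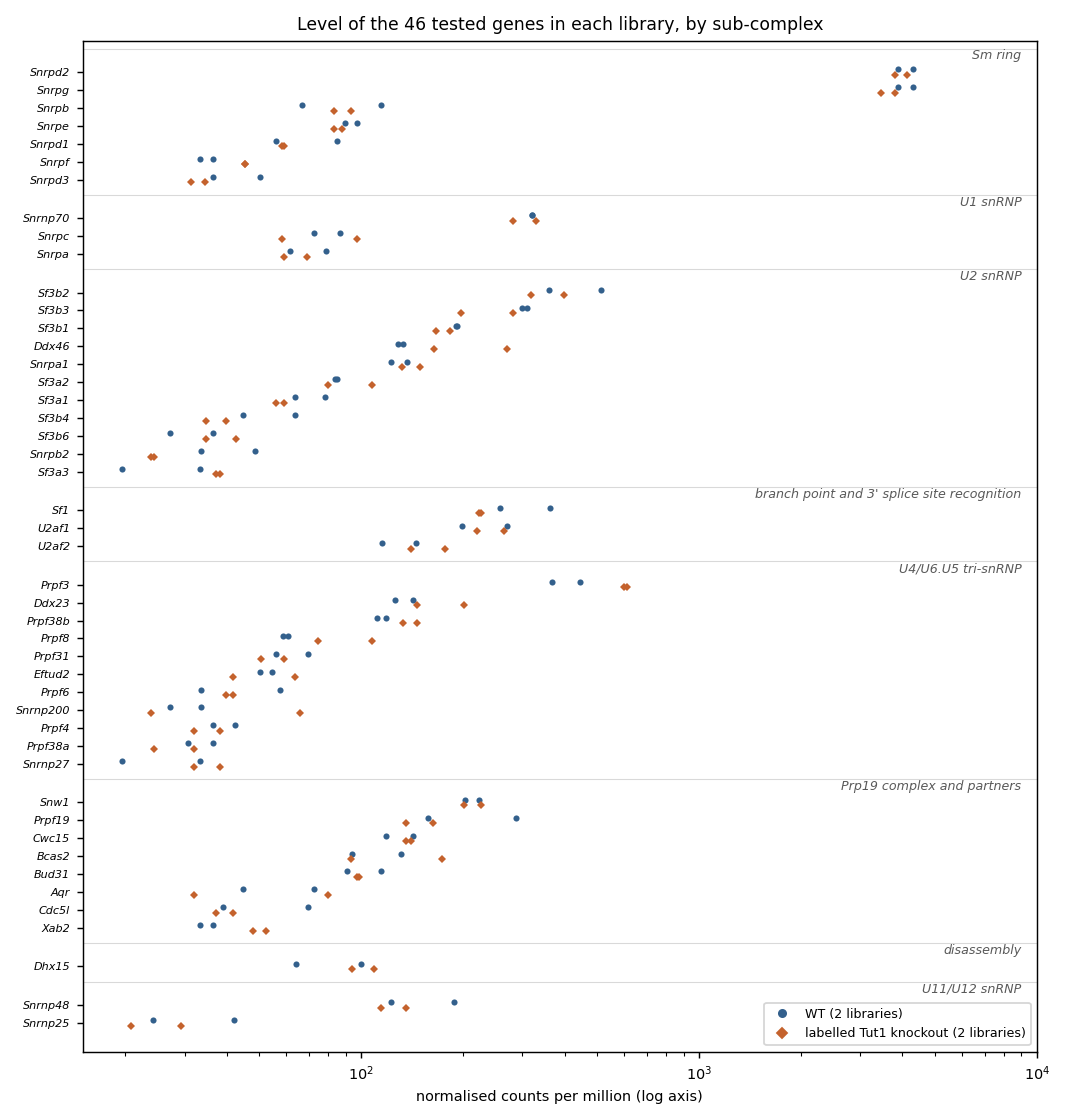
Level of each of the 46 tested genes in normalised CPM (x axis, log scale), grouped by sub-complex, with circles for the 2 WT libraries and diamonds for the 2 libraries labelled Tut1 knockout. Snrpd2 and Snrpg lie at 3452 CPM or higher, apart from every other gene shown, and the groups do not overlap for 17 of the 46 genes.

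Both abundant Sm genes have a processed pseudogene, a copy of the mRNA inserted elsewhere in the genome, with a row of its own in the count table. That of Snrpg was identical to the coding sequence, and that of Snrpd2 differed from it at a few positions. Gm8186 (GRCm38 chr17:26098991-26099221, minus strand) is annotated as 231 bases, and all of them were identical to the whole coding sequence of Snrpg (chr6:86371304-86379328, plus strand). The shared sequence is printed because no base in it tells the rows apart. It is taken from the GENCODE M21 transcripts, with the start and stop codons in capitals.
Snrpg and Gm8186: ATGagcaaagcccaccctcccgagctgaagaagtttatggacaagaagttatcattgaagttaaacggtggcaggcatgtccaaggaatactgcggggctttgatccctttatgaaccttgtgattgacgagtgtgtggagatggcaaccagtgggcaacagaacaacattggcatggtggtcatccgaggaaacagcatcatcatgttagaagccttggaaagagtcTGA

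Gm8186 had 2162 and 2098 counts in WT against 1995 and 1715 in knockout-labelled libraries, more than Snrpg in every library. It ranked 15 by mean count among all genes. Of the counts on the pair, the pseudogene row held 60.4% and 60.1% in WT against 60.6% and 61.1% in knockout-labelled libraries. The deposited Snrpg row is therefore an uncertain measure of the level of Snrpg, since how reads that match several rows were assigned is not stated. With both rows added, the counts were 3578 and 3490 in WT against 3294 and 2809 in knockout-labelled libraries.

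The fold change of Snrpg was small with either way of counting. For the Snrpg row alone the log2 fold change was -0.17 ± 0.10 (SE; n = 2 libraries a group; adjusted p = 0.454, edgeR quasi-likelihood test), with a 95% interval from -0.37 to 0.03, and the libraries labelled knockout were both below WT. For the sum of the rows it was -0.15 (adjusted p = 0.423).

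The pseudogene of Snrpd2 (chr7:19149722-19153542, plus strand) is Gm10120 (chr10:128011776-128012132, plus strand), whose 357 bases matched the Snrpd2 coding sequence at 98.88% identity. The differences, counted from the first base of the start codon and written with the Snrpd2 base first, were C19T, A59C, G120A and C314T. The first 130 bases of each are printed to show how few positions separate them, with the mismatched bases in capitals.
Snrpd2: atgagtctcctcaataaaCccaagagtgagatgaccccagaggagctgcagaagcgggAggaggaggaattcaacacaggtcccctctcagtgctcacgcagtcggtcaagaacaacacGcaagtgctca
Gm10120: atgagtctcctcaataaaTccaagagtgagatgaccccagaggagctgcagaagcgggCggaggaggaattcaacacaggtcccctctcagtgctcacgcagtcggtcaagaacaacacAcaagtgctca

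Gm10120 had 132 and 166 counts in WT against 140 and 132 in knockout-labelled libraries, far fewer than Snrpd2. Its share of the counts on the pair lay between 8.5% and 10.7% in all 4 libraries. The level of Snrpd2 was 4088 ± 310 CPM in WT against 3968 ± 219 CPM in knockout-labelled libraries (mean ± SD, n = 2 each), and the groups overlapped. Its log2 fold change was -0.04 ± 0.10 (SE; adjusted p = 0.903, edgeR), with a 95% interval from -0.24 to 0.16, and it turned positive with scaling to total counts, at 0.019. With 1 library left out it ranged from -0.129 to 0.029.

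**Figure D3:**
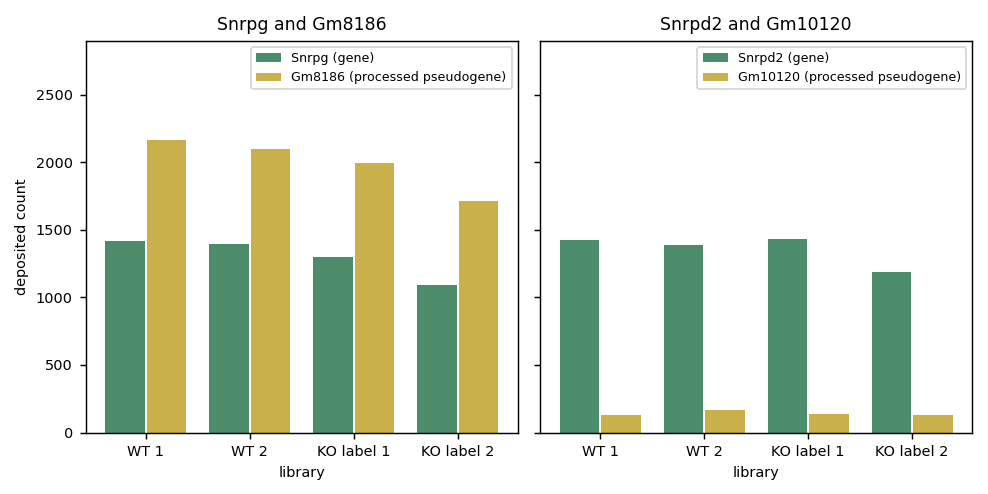
Deposited count (y axis) of Snrpg and Snrpd2 and of the processed pseudogene rows Gm8186 and Gm10120 in each of the 4 libraries (x axis), with 1 bar a row and library and no error bars. Gm8186 exceeds Snrpg in all 4 libraries, and Gm10120 stays at or below 166 counts.

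In all, 12 pseudogene rows matched 11 members. For Sf3b4, a subunit of the SF3b complex that holds U2 on the branch point, the pseudogene row Gm7935 was 99.3% identical over 1278 bases and had 5 and 3 counts in WT against 6 and 8 in knockout-labelled libraries. The remaining 9 rows had at most 6 counts in a library.

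Of the Sm genes tested, 6 of 7 had a negative fold change, with a median of -0.12 (log2), and none was called. Snrpf was the exception, with 11 and 13 counts in WT against 17 and 13 in knockout-labelled libraries. Snrpn, the neuronal paralog of Snrpb, had 2 to 6 counts and was not tested. The longest coding transcripts of Snrpb and Snrpn were 80.9% identical over an aligned stretch of 687 bases.

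No U1 protein passed the test. Snrnp70, which binds the first stem-loop of U1 RNA, had 106 and 115 counts in WT against 106 and 95 in knockout-labelled libraries, or 321.1 ± 0.092 and 305.8 ± 34.1 CPM. The WT values lay inside the range of the libraries labelled knockout. Its log2 fold change was -0.08 ± 0.19 (SE; adjusted p = 0.913, edgeR). It was -0.016 with total counts only and with thinned counts, -0.189 without replicate 2 labelled knockout, and turned to 0.039 without replicate 1 labelled knockout. The log2 fold changes of Snrpa, which binds the second stem-loop, and Snrpc, which stabilises contact with the 5′ splice site, were -0.11 and -0.07.

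Among the 11 U2 proteins tested, 6 had a negative fold change and the median was -0.13. Sf3b2, the most counted of them and a subunit of SF3b, had 119 and 183 counts in WT against 120 and 115 in knockout-labelled libraries. WT replicate 2 was high and the groups overlapped. This gave a log2 fold change of -0.29 ± 0.19 (SE; adjusted p = 0.534, edgeR), and it was -0.025 without that library, -0.525 without WT replicate 1, -0.13 without replicate 1 labelled knockout and -0.454 without replicate 2 labelled knockout.

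Ddx46, the helicase that remodels U2 when it joins the branch point, had the most positive fold change of all members tested. It had 44 and 46 counts in WT against 62 and 78 in knockout-labelled libraries, which gave 130.9 ± 3.4 and 217.8 ± 75.1 CPM. The groups did not overlap, but the libraries labelled knockout lay far apart. Its log2 fold change was 0.71 ± 0.25 (SE; unadjusted p = 0.00794, adjusted p = 0.149, edgeR), and it was 0.332 without replicate 2 labelled knockout and 1.048 without replicate 1 labelled knockout.

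Snrpb2, which binds U2 RNA together with Snrpa1, had the most negative fold change. It rested on few counts, 16 and 12 in WT against 9 and 7 in knockout-labelled libraries. The fold change on the log2 scale was -0.75 ± 0.47 (SE; adjusted p = 0.516, edgeR), with a 95% interval from -1.70 to 0.20. It was -0.479 without WT replicate 1 and -1.009 without WT replicate 2. Snrpa1 had a log2 fold change of 0.12.

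Sf3b4 had 21 and 16 counts in WT against 15 and 10 in knockout-labelled libraries, and the groups did not overlap. This gave a log2 fold change of -0.51 ± 0.40 (SE; adjusted p = 0.623, edgeR). With the counts of Gm7935 added it was -0.16 (adjusted p = 0.902), and it was -0.255 without WT replicate 1. It was -0.765 without WT replicate 2 and -0.945 with counts thinned to the smallest library.

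The branch point and the 3′ splice site are first read by Sf1 and the U2af1 and U2af2 heterodimer. Sf1, the branch point binding protein, had 85 and 130 counts in WT against 84 and 65 in knockout-labelled libraries, or 310.3 ± 74.7 and 224.5 ± 1.8 CPM. WT replicate 2 was the high library, and both WT libraries lay above those labelled knockout. Its log2 fold change was -0.47 ± 0.21 (SE; unadjusted p = 0.0286, adjusted p = 0.268, edgeR), and it was -0.21 without WT replicate 2. An antisense gene at this locus, Gm14966, had 0 to 6 counts, and whether reads were counted by strand is not stated. U2af1 and U2af2 had log2 fold changes of 0.05 and 0.27.

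In the U4/U6.U5 tri-snRNP the median log2 fold change was 0.27, with 7 of 11 tested genes positive and none called. Its summed level over all 15 genes was 1136 and 989 CPM in WT against 1294 and 1421 CPM in knockout-labelled libraries. Without Prpf3, the largest part of this sum and left out after its values were seen, the other 14 genes summed to 690.6 and 622.9 CPM in WT against 680.3 and 819.7 CPM, and the groups overlapped. Whether the tri-snRNP genes differed from the other members was not tested.

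Prpf3, a protein of the U4/U6 snRNP, came closest to the threshold. It had 147 and 131 counts in WT against 231 and 173 in knockout-labelled libraries. The levels were 405.6 ± 56.1 CPM in WT against 607.4 ± 9.2 CPM in knockout-labelled libraries, and the groups did not overlap. This gave a log2 fold change of 0.59 ± 0.17 (SE; unadjusted p = 0.00117, adjusted p = 0.0548, edgeR), with a 95% interval from 0.25 to 0.92. The adjusted p was 0.0424 with limma-voom, 0.0473 with the bias-adjusted form of the edgeR test, 0.0285 with scaling to total counts, and 0.465 with DESeq2. The edgeR adjusted p was 0.0947 with the replicate number as a block and 0.118 with counts thinned to the smallest library. The log2 fold change was 0.437 without WT replicate 2 and 0.723 without WT replicate 1. It was positive in all 15 alternatives, which reuse the same libraries.

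Other proteins of the tri-snRNP had smaller counts. Prpf8, which forms the scaffold of the catalytic centre, had 20 and 21 counts in WT against 28 and 31 in knockout-labelled libraries, without overlap. On the log2 scale its fold change was 0.58 ± 0.33 (SE; adjusted p = 0.446, edgeR), and it was 0.32 without replicate 2 labelled knockout. The helicase Ddx23, which acts when U1 leaves the 5′ splice site, had a log2 fold change of 0.36, and the U4/U6-unwinding helicase Snrnp200 had 0.48. Prpf31 and Prpf4, which bind U4/U6 beside Prpf3, had log2 fold changes of -0.20 and -0.18. None of these 4 genes passed the test.

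**Figure D4:**
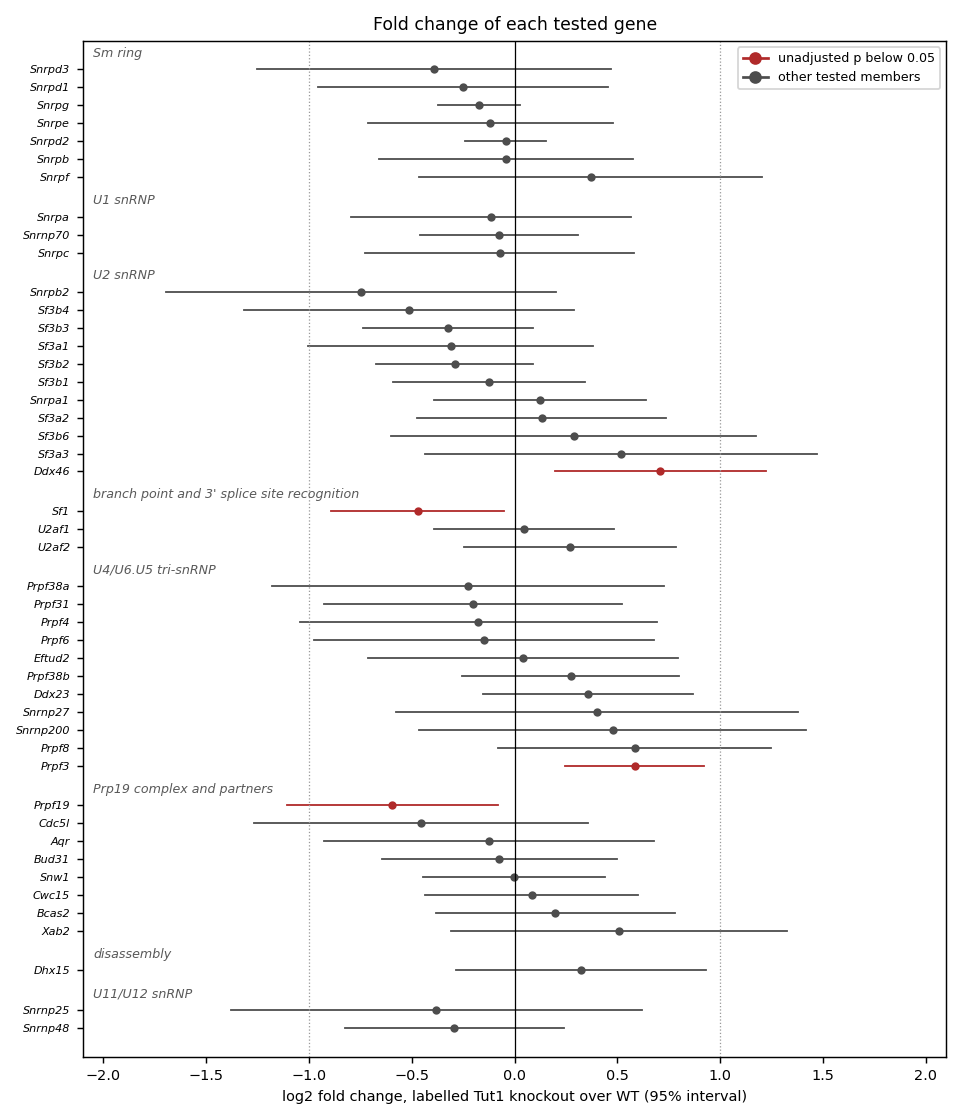
Log2 fold change, libraries labelled Tut1 knockout over WT (x axis), of the 46 tested genes grouped by sub-complex, with points for the estimate and lines for its 95% interval. Red marks the 4 genes at an unadjusted p below 0.05, dotted lines mark 2-fold either way, and no gene passed the adjusted threshold.

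For the Prp19 complex and its partners the median log2 fold change was -0.04, and 5 of 8 tested genes were negative. Prpf19, the ubiquitin ligase that gives the complex its name, had 52 and 103 counts in WT against 51 and 47 in knockout-labelled libraries. WT replicate 2 stood apart, and WT replicate 1 lay between the libraries labelled knockout. Its log2 fold change was -0.59 ± 0.25 (SE; unadjusted p = 0.0247, adjusted p = 0.249, edgeR). It was -0.098 without WT replicate 2 and -0.963 without WT replicate 1 (adjusted p = 0.0625, edgeR).

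Snw1, a partner of the Prp19 complex and the most counted gene of this group, had 67 and 80 counts in WT against 76 and 65 in knockout-labelled libraries. Its levels were 213.2 ± 14.5 and 213.9 ± 16.8 CPM, and the groups overlapped. The fold change on the log2 scale was -0.003 ± 0.22 (SE; adjusted p = 0.998, edgeR), and its sign changed with the scaling. Slirp overlaps Snw1 on the opposite strand and had 728 to 892 counts, so reads of the pair may be shared if strand was not used.

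Dhx15, the helicase that releases the spent spliceosome, had 33 and 23 counts in WT against 41 and 27 in knockout-labelled libraries. The groups overlapped, with a log2 fold change of 0.32 ± 0.30 (SE; adjusted p = 0.700, edgeR). Without WT replicate 1 it was 0.658, without WT replicate 2 it was 0.020, and without replicate 1 labelled knockout it was 0.20.

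Of the U11/U12 proteins, Snrnp48 had 62 and 44 counts in WT against 51 and 33 in knockout-labelled libraries. Its groups overlapped, and its log2 fold change was -0.29 ± 0.26 (SE; adjusted p = 0.692, edgeR). Snrnp25 had a log2 fold change of -0.38, and Snrnp35 was not tested. The fold change of Snrnp48 turned positive without WT replicate 1, at 0.028, and was -0.586 without WT replicate 2, -0.189 without replicate 2 labelled knockout and -0.594 with counts thinned to the smallest library.

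The 8 members with a row but too few counts to pass the filter were Snrpn, Ppih, Snrnp40, Sart1, Usp39, Plrg1, Crnkl1 and Snrnp35, each with 0 to 11 counts in a library. Sart1, which recruits the tri-snRNP, had 3 and 10 counts in both groups. Usp39 had 2 and 5 counts in WT against 6 and 0 in knockout-labelled libraries. With no filter on low counts all 8 entered the edgeR test, and 0 were called (0 at an unadjusted p below 0.05, lowest adjusted p = 0.818).

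The lists of genes that act beside the core proteins gave the same count of 0 called genes. The Sm ring assembly list, which loads the ring onto snRNAs, had 6 of 15 genes tested, 4 of them positive, with a median log2 fold change of 0.27. The LSm ring and U6 binders had 12 of 13 tested and a median of -0.03, with Lsm5 at an unadjusted p below 0.05 (96 and 81 counts in WT against 63 and 39, log2 fold change -0.75 ± 0.23, SE; adjusted p = 0.073, edgeR; singled out after its values were seen). The other spliceosome proteins had 17 of 25 tested and a median of -0.23. The most counted of them, Ddx39b, was at an unadjusted p below 0.05, with 130 and 137 counts in WT against 111 and 83. Its log2 fold change was -0.41 ± 0.18 (SE; adjusted p = 0.284, edgeR). The minor spliceosome partners had 4 of 10 tested and a median of 0.10. The SR proteins, which recruit the spliceosome to exons, had 12 of 12 tested, 10 of them negative, with a median of -0.15. The hnRNP proteins, which coat pre-mRNA, had 21 of 22 tested and all 21 negative, with a median of -0.22. At an unadjusted p below 0.05 were 6 of the 21, beside 14.2% of all genes, and Ptbp1, singled out after its values were seen, had a log2 fold change of -0.61 ± 0.18 (SE; adjusted p = 0.058, edgeR). The most counted, Hnrnpa2b1, had 2004 and 1783 counts in WT against 1792 and 1266 in knockout-labelled libraries (log2 fold change -0.27 ± 0.10, SE; adjusted p = 0.152, edgeR).

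Markers of several cell types moved between the groups in these bulk samples, in which fewer cells of a type and less RNA per cell cannot be told apart. The summed level of 14 cycling-cell genes was 4659 and 3972 CPM in WT against 3022 and 3296 CPM in knockout-labelled libraries, and 12 of the 14 were negative, with Mki67 and Cenpf called. That of the 11 progenitor genes with a row was 2235 and 2042 CPM in WT against 1350 and 1528 CPM in knockout-labelled libraries, with 6 of 9 tested negative and Lhx2 called. Lhx2 made up most of this difference, at 1054 and 760 CPM in WT against 282 and 368 CPM in knockout-labelled libraries. Without Lhx2, left out after its values were seen, the other 10 genes summed to 1181 and 1282 CPM in WT against 1068 and 1160 CPM, and the groups did not overlap. Without Lhx2 and Emx2, left out likewise, the other 9 genes summed to 1036 and 1109 CPM against 1007 and 1052 CPM, and the groups overlapped. The 13 genes of intermediate progenitors and neurons summed to 842.1 and 843.5 CPM in WT against 1645 and 1584 CPM in knockout-labelled libraries. All 9 tested were positive, and Dcx and Mapt were called. Gap43 (4 and 8 counts in WT against 19 and 10) passed the filter only through the libraries labelled knockout. The 8 microglia genes summed to 96.9 and 106.1 CPM in WT against 409.3 and 336.9 CPM in knockout-labelled libraries. Of these, 4 were tested and all 4 were called higher, beside 2.06% of all genes called. Tyrobp (1 and 4 counts in WT against 16 and 13), Aif1 (9 and 6 against 39 and 21) and Cx3cr1 (6 and 6 against 32 and 27) passed the filter only through the libraries labelled knockout. At WT counts this low a gene could be tested only if it was higher there. The untested microglia genes had 0 to 5 counts in a library. Mesenchymal genes summed to 103.0 and 265.3 CPM in WT against 467.7 and 319.5 CPM in knockout-labelled libraries. Endothelial genes summed to 90.9 and 103.3 against 164.8 and 152.8, and ventral forebrain genes to 0.0 and 50.3 against 143.5 and 90.3. No endothelial gene was called, and Col1a2 and Dlx1 were called higher. Col1a2 had 3 and 7 counts in WT against 27 and 16, and Dlx1 0 and 8 against 34 and 14. Both passed the filter only through the libraries labelled knockout. Red blood cell genes summed to 1324 and 1740 CPM in WT against 2137 and 1434 CPM, with overlap, and the embryonic globin Hbb-bh1 was called lower (log2 fold change -1.80 ± 0.46, SE; adjusted p = 0.0279, edgeR). The other 4 globins tested were not called, with log2 fold changes of 1.07 for Hba-x (adjusted p = 0.0563, edgeR), 0.24 for Hba-a1, 0.33 for Hba-a2 and -0.14 for Hbb-y. The summed level of the core spliceosome genes without Snrpd2 and Snrpg was 5261 and 5385 CPM in WT against 5102 and 5613 CPM in knockout-labelled libraries. The part of the cell type markers in the values of single members was not tested.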

How the data were processed

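The deposited file held raw counts per gene for 4 libraries, which the authors made from Nanopore reads of poly(A)-enriched RNA aligned with minimap2 to the Ensembl transcriptome (GRCm38 per the labels) and handled with FLAIR. The summing of isoforms, the assignment of reads that match several genes and the use of strand are not stated. Members and lists were chosen with earlier results of these data known. Groups and replicate numbers came from the sample labels. Counts were tested with edgeR 4.0.16 in R 4.3.3 (filterByExpr with a minimum count of 10 and a total of 15, TMM, quasi-likelihood, two-sided), Benjamini-Hochberg over 5878 genes. The fit had 37.5 prior degrees of freedom and a biological coefficient of variation of 10.5%. The code was tested on simulated counts. DESeq2 1.42.0, limma-voom 3.58.1 and other settings were alternatives. Members given with values in every library were those at an unadjusted p below 0.05, the 3 largest rises and falls, and the most counted of each sub-complex. Snrpg, Snrpf, Sart1 and Usp39 were added after their values were seen. Positions, lengths, sequences and pseudogene matches came from GENCODE M21 on GRCm38 (16436 identifiers matched), an older annotation release than the Ensembl release behind the counts. Pseudogene rows were matched with blastn 2.17.0 at 90% identity over at least 50% of the row and 150 bases.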

Additional observations from a re-analysis of the deposited data

How the results depend on the processing

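With 305642 to 397150 counts per library, the median over tested members of the mean count was 30, and 2 libraries a group limit the precision. The count of members called was 0 in 12 of the 15 alternatives and 1, Prpf3, with total counts only, limma-voom and the bias-adjusted form. It was 0 without any 1 library. The median log2 fold change of the members was -0.011 with total counts only, when the median of all genes was 0.048, and ranged from -0.083 to 0.011 when 1 library was left out. It turned positive without WT replicate 1. The number of members lower in the libraries labelled knockout ranged from 23 to 30 when 1 library was left out.
The labels do not say that a replicate number marks a shared litter or batch, and the correlation of deviations between libraries of the same number was -0.061, so the numbers were not taken as pairs. With the replicate number as a block, 0 members were called, the median was -0.057 and 26 were lower, while 76 genes in all were called in place of 121.
Of 195 recomputed fold changes of named members, 181 kept their direction and side of the threshold. With total counts only, Snrpd2 reversed to 0.019 and Snw1 to 0.059. Snw1, near 0, also reversed to 0.004 with the block, to 0.118 with counts thinned to the smallest library and to 0 at 3 decimals with DESeq2. With 1 library left out, Snrpd2 ranged from -0.129 to 0.029 (positive without WT replicate 1 or replicate 1 labelled knockout), Snw1 from -0.079 to 0.081 (positive without WT replicate 2 or replicate 1 labelled knockout), Snrnp70 from -0.189 to 0.039 (positive without replicate 1 labelled knockout) and Snrnp48 from -0.586 to 0.028 (positive without WT replicate 1). The cause of these changes was not tested.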
